A study of Mus musculus with 8 samples.

Results

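In all, 10 genes of the Notch pathway were followed across 4 populations of bone marrow stromal cells from newborn mice. They are the receptors *Notch1*, *Notch2*, *Notch3* and *Notch4*, the ligands *Jag1* and *Dll1*, the DNA-binding partner *Rbpj*, and the target genes *Hes1*, *Hey1* and *Heyl*. The genes were chosen by symbol, with earlier results of these data known. All 10 were listed among the 15880 genes of the normalized table, each under a single identifier. The authors describe keeping genes above 2 counts per 1e6 in at least 2 libraries. Applied here to the recovered reads, that rule kept 14235 of the 15880 genes, so the table does not follow it as stated. *Dll4* and *Dtx1*, for instance, exceed a normalized value of 2 in only 1 library. *Dll1* exceeded 2 in a single population, and a filter of this kind favours such a difference. Where the filter is said below to favour a difference, a filter of this kind is meant, since the exact one is not known.

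Notch receptors are single-pass membrane proteins that are activated by ligands of the Jagged and Delta families on neighbouring cells. Ligand binding leads to cleavage by Adam proteases and γ-secretase, and the released intracellular domain joins Rbpj on DNA and turns on genes of the Hes and Hey families of transcriptional repressors. In bone, the pathway is known to restrain osteoblast differentiation, and *Notch3* is widely used as a gene of pericytes and smooth muscle cells.

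The cells came from C57BL/6 pups heterozygous for *Nes-Gfp* at P1, a line that makes GFP under regulatory elements of the rat nestin gene. Femora, tibiae, scapulae, humeri and radii of 3 pups were pooled, crushed and digested with collagenase. Cells negative for CD45, CD31 and Ter119 were sorted by GFP and surface Pdgfrα, with 15000 to 80000 cells per population. The GFP+ Pdgfrα+ (double-positive), GFP+ Pdgfrα- (GFP-only), GFP- Pdgfrα+ (Pdgfrα-only) and GFP- Pdgfrα- (double-negative) populations had 2 libraries each, from separate pools of littermates, and no group carried a treatment. Libraries of the same replicate number were read as sharing a pool, and the main fit had no term for the pool. GFP reports activity of the transgene, which need not follow the endogenous gene in each cell.

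A value, called the normalized level here, is the reads of a gene plus 0.5, scaled to 1e6 of the effective size of the library. Libraries held 3221217 to 5302762 reads, and 3 reads, taken as the detection floor, corresponded to a level of 0.825 to 1.04. Differences are log2 differences of the level plus 1, which understates differences of weakly detected genes. Tests were made with limma, Benjamini–Hochberg adjustment ran over the 15880 genes, and an adjusted p-value up to 0.05 counted as called. The comparisons share populations and are given side by side. An exact permutation test of 2 libraries against 2 could not go below p = 0.333, so calls rest on the spread pooled over all genes and populations. A p-value above the threshold does not show that levels were equal.

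The sorted populations were first checked against *Pdgfra* and the mouse gene *Nes*, the counterpart of the rat gene behind the reporter. *Nes* was 57.6 and 72.0 in double-positive cells, 149 and 176 in GFP-only cells, 27.4 and 47.1 in Pdgfrα-only cells, and 3.59 and 9.08 in double-negative cells. *Pdgfra* was 733 and 754 in double-positive cells, 839 and 794 in Pdgfrα-only cells, 18.1 and 10.4 in GFP-only cells, and 3.30 and 4.36 in double-negative cells. *Pdgfra* levels followed the gate without overlap. *Nes* libraries of the GFP+ and GFP- cells did not overlap, but among Pdgfrα+ cells the difference of 0.82 did not pass the test (limma adjusted p = 0.213). The double-negative libraries stood apart from their label in another way. A list of 6 erythroid genes, led by *Hbb-b1*, summed to 9217 and 15191 there despite the Ter119 gate, against 30.4 to 108 in the other 6 libraries. The mitochondrial ribosomal RNA *mt-Rnr2* took 27.2% and 29.1% of reads in double-negative libraries and 9.52% to 17.6% in the others. The part of these values in the differences against double-negative cells was not tested.

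The GFP-only cells had the highest mean of 8 of the 10 genes, and the double-negative cells the lowest mean of 8. Over the 4 populations, 9 of the 10 differed in limma's F-test, where 66.0% of all genes did, and *Notch4* did not (adjusted p = 0.5001). Of the 8 genes highest in GFP-only cells, *Notch1*, *Notch3*, *Dll1*, *Hey1* and *Heyl* passed the test against the next population. For *Dll1* the filter of the authors favoured such a difference, so its calls against GFP-only cells and its interaction, counted here and below, add no support. *Notch2* and *Rbpj* were highest in Pdgfrα-only cells by the mean, with libraries that overlapped those of GFP-only cells. In bulk RNA, fewer cells that express a gene and less RNA of it per cell cannot be told apart.

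Between the Pdgfrα+ populations, 2 of the 10 genes (*Notch3* and *Heyl*) were called higher in double-positive cells, where 3.22% of all genes were, and 1 (*Rbpj*) lower, where 2.13% were. The median log2 difference of the 10 genes was 0.45, against 0.0047 over all genes. Between the GFP+ populations, 7 were lower in double-positive than in GFP-only cells, where 11.1% of all genes were, and 0 higher, where 13.1% were. The median was −1.33 for the 10 genes and −0.025 for all genes. In GFP-only against double-negative cells, 9 were higher (30.1% of all genes) and 0 lower (23.6%), with a median of 4.19 against 0.15. In Pdgfrα-only against double-negative cells, 8 were higher (32.9% of all genes) and 0 lower (26.8%), with a median of 2.03 against 0.17. Comparing GFP-only with Pdgfrα-only cells, 6 were called, each higher in GFP-only cells, where 27.9% of all genes were called in either direction. Comparing double-positive with double-negative cells, 8 were called, each higher in double-positive cells, where 59.3% of all genes were called in either direction.

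**Figure D1:**
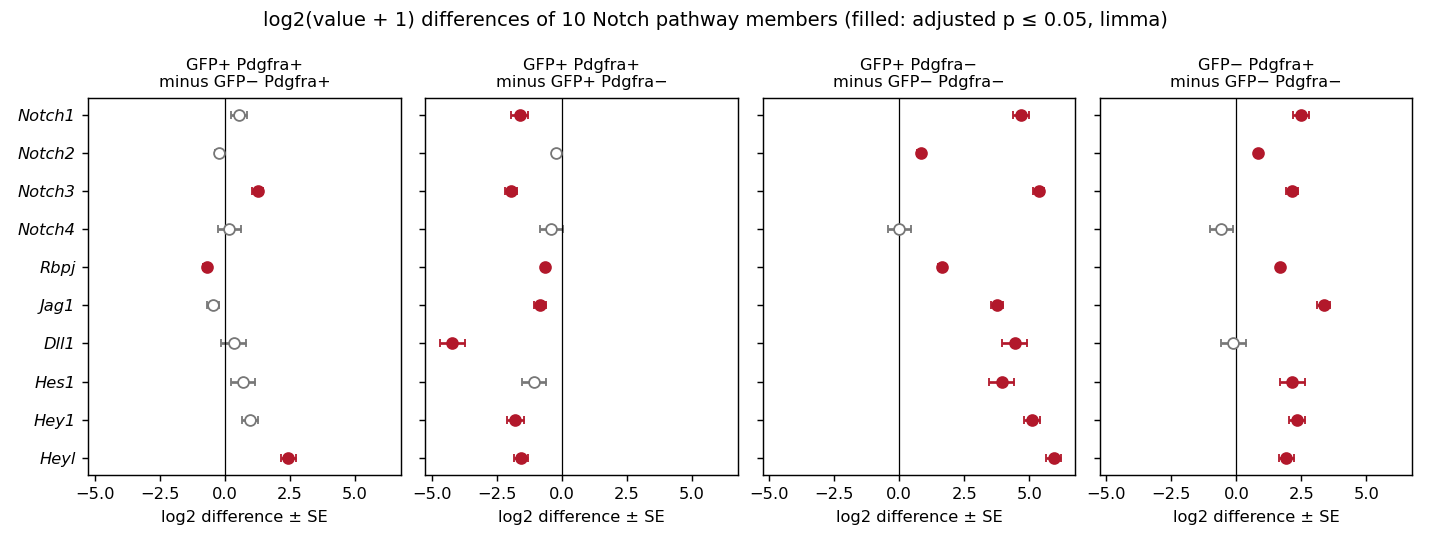
Log2 difference (± standard error) of each gene on the horizontal axis in 4 comparisons, from the fit to 8 libraries, with filled points where the test was passed. In double-positive against GFP-only cells the 7 filled points lie below 0, and in GFP-only against double-negative cells the 9 filled points lie above 0.

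*Notch3* (ENSMUSG00000038146), a receptor found on vascular mural cells, has 33 exons at chr17:32257765-32303825 on the minus strand of NCBIM37. Its level was 118 and 125 in double-positive cells, 420 and 536 in GFP-only cells, 51.6 and 48.6 in Pdgfrα-only cells, and 7.90 and 14.0 in double-negative cells. The means of 478 ± 82.2, 121 ± 5.43, 50.1 ± 2.12 and 10.96 ± 4.34 (SD, n = 2) fell in the order GFP-only, double-positive, Pdgfrα-only, double-negative, and no libraries of neighbouring populations overlapped. Each step of that order passed the test. The ratio of means was 3.94 between GFP-only and double-positive cells (log2 difference of double-positive against GFP-only cells −1.96, SE 0.22, limma adjusted p = 6.12e-05). Double-positive cells exceeded Pdgfrα-only cells by a ratio of 2.42 (1.26, SE 0.22, limma adjusted p = 0.00656). That call was lost on leaving out any 1 of the 4 libraries compared (adjusted p = 0.0534 to 0.0855) and without the mean-variance trend (0.0675), with a range of 0.000377 to 0.0855 over the alternatives. Against double-negative cells, GFP-only cells were 43.6-fold higher (5.36, SE 0.22, limma adjusted p = 2.91e-09). An annotated gene on the opposite strand overlaps exons of *Notch3*, and counting was not stated to use strand, so reads of the pair cannot be told apart.

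*Notch1* (ENSMUSG00000026923) is the receptor best known for its part in lymphoid and vascular development, and lies at chr2:26313423-26372183 on the minus strand, with 34 exons in its longest transcript. Its level was 82.7 and 91.8 in double-positive cells, 273 and 272 in GFP-only cells, 56.6 and 61.9 in Pdgfrα-only cells, and 5.89 and 15.9 in double-negative cells. The GFP-only libraries stood above all others and the double-negative libraries below all others. GFP-only cells exceeded double-positive cells 3.12-fold (log2 difference of double-positive against GFP-only cells −1.63, SE 0.31, limma adjusted p = 0.00228). The double-positive and Pdgfrα-only libraries did not overlap, but their difference of 0.55 (SE 0.31) missed the threshold (limma adjusted p = 0.382). It passed without either of the double-negative libraries (0.0345 and 0.0399), within a range of 0.0345 to 0.670 over the alternatives. GFP-only cells exceeded double-negative cells by 4.66 (SE 0.31, limma adjusted p = 1.21e-07), and by 4.02 or 5.31 without double-negative replicate 1 or 2. Pdgfrα-only cells exceeded double-negative cells by 2.48, or by 1.83 and 3.13 without those libraries in turn. Double-positive cells exceeded double-negative cells by 3.03, or by 2.38 and 3.68 likewise. Exons of *Notch1* overlap annotated genes on the opposite strand, so its reads carry the same limit as those of *Notch3*.

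*Notch2* (ENSMUSG00000027878, chr3:97817461-97954290, plus strand, 34 exons) varied least among the 3 well-detected receptors. Its level was 387 and 371 in double-positive cells, 417 and 472 in GFP-only cells, 457 and 436 in Pdgfrα-only cells, and 268 and 235 in double-negative cells. The double-negative libraries were lowest, and the other 3 populations lay close together, with GFP-only and Pdgfrα-only libraries overlapping. GFP-only cells exceeded double-negative cells 1.77-fold (0.82, SE 0.12, limma adjusted p = 0.000118), and Pdgfrα-only cells did so by 1.78-fold (0.83, SE 0.12, 8.48e-05). Double-positive cells exceeded double-negative cells by 0.59 (SE 0.12, limma adjusted p = 0.00121), a call that was lost when each library was centred on its median (0.11, adjusted p = 0.468, the highest over the alternatives). No comparison among the other 3 populations passed the test, with limma adjusted p-values of 0.212 to 0.964.

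*Notch4* (ENSMUSG00000015468, chr17:34701213-34725448, plus strand) is known chiefly from endothelial cells, against which the CD31 gate was set. Its levels lay between 1.39 and 5.27 over the 8 libraries, from 5 to 20 reads each. Both double-negative libraries lay above both double-positive ones, the other pairs of populations next to each other in level overlapped, and none of the 6 comparisons between populations passed the test (limma adjusted p = 0.272 to 0.993). No alternative called a difference of *Notch4* between populations, except that with quantile normalization it was lower in Pdgfrα-only cells (−1.25, adjusted p = 0.0250) and in double-positive cells (−1.14, 0.0387) than in double-negative cells.

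Levels of different receptors were compared only per kilobase of exon, as a share of the sum over the 4 receptors in each library. *Notch2* made up 62.6% ± 1.89 (SD, n = 2) of that sum in double-positive cells, 79.9% ± 0.76 in Pdgfrα-only cells and 90.1% ± 4.61 in double-negative cells. In GFP-only cells its share was 34.9% ± 0.99, and *Notch3* held the largest share, 48.8% ± 2.73. The *Notch3* share was 26.2% ± 1.14 in double-positive cells, 11.7% ± 0.22 in Pdgfrα-only cells and 5.19% ± 2.26 in double-negative cells. *Notch3* thus ranked above *Notch2* per kilobase in both GFP-only libraries and below it in the other 6. The *Notch1* share was 15.9% ± 1.89 in GFP-only cells, 10.6% ± 0.77 in double-positive cells, 7.83% ± 0.68 in Pdgfrα-only cells and 2.93% ± 2.01 in double-negative cells. With the longest transcript as the length, *Notch1* rose to 22.1% in GFP-only cells, and in Pdgfrα-only cells *Notch1* (11.3%) and *Notch3* (11.2%) had nearly equal shares. The summed receptor level per kilobase was 121 ± 14.2 in GFP-only cells, 57.6 ± 0.067 in double-positive cells, 53.2 ± 1.26 in Pdgfrα-only cells and 26.5 ± 1.16 in double-negative cells. Shares and sums were not tested.

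**Figure D2:**
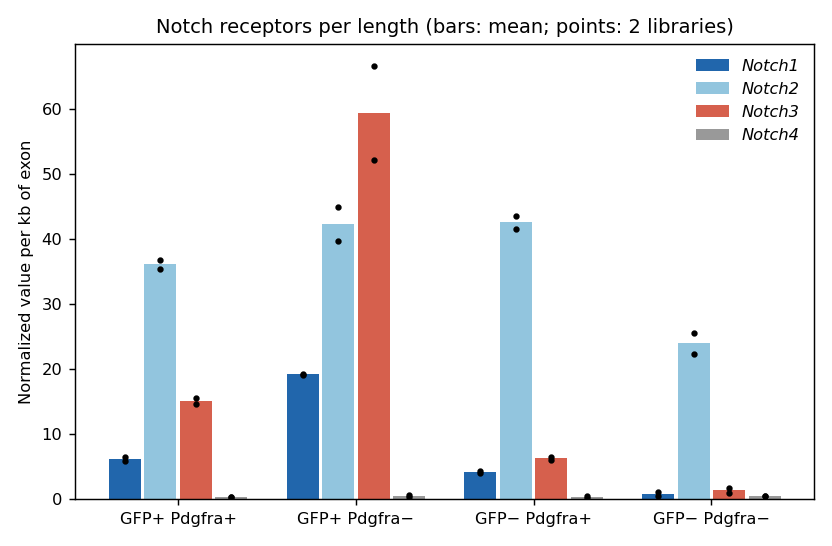
Level per kilobase of exon (vertical axis) of the 4 receptors in each population, with bars for the mean and points for the 2 libraries. *Notch3* is the tallest bar in GFP-only cells, at 59.4, and *Notch2* in the other 3 populations, at 36.1 in double-positive, 42.5 in Pdgfrα-only and 23.9 in double-negative cells.

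*Jag1* (ENSMUSG00000027276, chr2:136907192-136942380, minus strand, 26 exons) encodes a ligand of the Jagged family. Its level was 39.6 and 45.6 in double-positive cells, 65.2 and 90.9 in GFP-only cells, 65.7 and 51.8 in Pdgfrα-only cells, and 5.60 and 4.13 in double-negative cells. The double-negative libraries were far below the rest, the double-positive libraries were lowest among the other 6, and those of GFP-only and Pdgfrα-only cells overlapped. GFP-only cells exceeded double-negative cells 16.1-fold (3.75, SE 0.23, limma adjusted p = 7.75e-08), Pdgfrα-only cells 12.1-fold (3.35, SE 0.23, 1.27e-07) and double-positive cells 8.76-fold (2.90, SE 0.23, 4.92e-07). Double-positive cells were lower than GFP-only cells (−0.84, SE 0.23, limma adjusted p = 0.0214). That call was lost without GFP-only replicate 2 (−0.61, adjusted p = 0.195), double-positive replicate 1 (0.110) or double-positive replicate 2 (0.0564) and without the mean-variance trend (0.0632), and adjusted p ranged from 0.00867 to 0.195 over the alternatives. The difference between double-positive and Pdgfrα-only cells was −0.45 (SE 0.23, limma adjusted p = 0.346).

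*Dll1* (ENSMUSG00000014773, chr17:15504318-15513836, minus strand, 11 exons) encodes a ligand of the Delta family. Its level was 30.2 and 34.6 in GFP-only cells, from 124 and 134 reads. The double-positive libraries had 1.80 and 0.14, from 6 and 0 reads, the Pdgfrα-only libraries 0.38 and 0.45, from 1 read each, and the double-negative libraries 0.14 and 1.06, from 0 and 4 reads. Thus *Dll1* was well above the floor in GFP-only cells and at or near it in the other populations, whose libraries overlapped. The log2 difference of double-positive against GFP-only cells was −4.22 (SE 0.49, limma adjusted p = 6.49e-05). It was −4.87 without double-positive replicate 1 and −3.58 without double-positive replicate 2. GFP-only cells exceeded Pdgfrα-only cells by 4.56 (SE 0.49, limma adjusted p = 2.82e-05) and double-negative cells by 4.44 (SE 0.49, 8.93e-06). These sizes depend on the pseudocount, since the lower group is close to 0. The other 3 comparisons had limma adjusted p-values of 0.716 to 0.848. A gene on the opposite strand overlaps exons of *Dll1*, and its reads cannot be told apart from those of *Dll1*.

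*Rbpj* (ENSMUSG00000039191, chr5:53947018-54048684, plus strand, 11 exons) encodes the factor through which the cleaved receptors act on DNA. Its level was 113 and 112 in double-positive cells, 178 and 177 in GFP-only cells, 196 and 171 in Pdgfrα-only cells, and 58.7 and 54.4 in double-negative cells. The GFP-only and Pdgfrα-only libraries overlapped at the top, the double-positive libraries lay below them, and the double-negative libraries were lowest. Double-positive cells were lower than GFP-only cells (−0.65, SE 0.13, limma adjusted p = 0.00393), which missed the threshold only without the mean-variance trend (0.0514, the highest over the alternatives). They were also lower than Pdgfrα-only cells (−0.69, SE 0.13, limma adjusted p = 0.0105). That call was lost on leaving out any 1 of the 4 libraries compared (adjusted p = 0.0548 to 0.129) and without the trend (0.112), with a range of 0.00394 to 0.129. Double-positive cells exceeded double-negative cells 1.99-fold (0.98, SE 0.13, limma adjusted p = 4.85e-05), GFP-only cells 3.14-fold (1.64, SE 0.13, 7.41e-07) and Pdgfrα-only cells 3.24-fold (1.68, SE 0.13, 4.10e-07). Pseudogenes of *Rbpj* are annotated, and the way its reads were divided among them is uncertain.

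*Heyl* (ENSMUSG00000032744, chr4:122910799-122927118, plus strand, 5 exons) encodes a Hey-family repressor that is expressed in mural cells of vessels. Its level was 101 and 118 in double-positive cells, 295 and 364 in GFP-only cells, 20.5 and 18.3 in Pdgfrα-only cells, and 2.73 and 6.72 in double-negative cells. The 4 populations did not overlap, and each step of the order GFP-only, double-positive, Pdgfrα-only, double-negative passed the test. Double-positive cells exceeded Pdgfrα-only cells 5.65-fold (2.44, SE 0.28, limma adjusted p = 0.000444), the largest of the 10 differences between the Pdgfrα+ populations. Double-positive cells were lower than GFP-only cells (−1.58, SE 0.28, limma adjusted p = 0.00173). GFP-only cells exceeded double-negative cells by 5.94 (SE 0.28, limma adjusted p = 8.69e-09). Pdgfrα-only cells exceeded double-negative cells by 1.93 (SE 0.28, limma adjusted p = 8.75e-05).

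*Hey1* (ENSMUSG00000040289, chr3:8663362-8667039, minus strand, 5 exons) encodes another repressor of that family. Its level was 23.3 and 18.3 in double-positive cells, 72.2 and 75.5 in GFP-only cells, 11.5 and 8.76 in Pdgfrα-only cells, and 0.72 and 1.77 in double-negative cells. The order of the populations was that of *Heyl*, with no overlap between neighbours. Double-positive cells were lower than GFP-only cells (−1.79, SE 0.31, limma adjusted p = 0.00141). Double-positive and Pdgfrα-only cells differed by 0.97 (SE 0.31), which missed the threshold (limma adjusted p = 0.107) and passed it without either double-negative library (0.0436 and 0.0492), within a range of 0.0436 to 0.414. Pdgfrα-only cells exceeded double-negative cells by 2.34 (SE 0.31, limma adjusted p = 3.93e-05), and GFP-only cells by 5.10 (SE 0.31, 6.66e-08).

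*Hes1* (ENSMUSG00000022528, chr16:30064470-30067882, plus strand, 4 exons) encodes a repressor that many pathways besides Notch can induce. Its level was 33.0 and 29.2 in double-positive cells, 74.7 and 60.1 in GFP-only cells, 21.8 and 16.2 in Pdgfrα-only cells, and 7.61 and 1.30 in double-negative cells. Neighbouring populations again did not overlap, but of the neighbours only Pdgfrα-only and double-negative cells passed the test (2.15, SE 0.46, limma adjusted p = 0.00158). That difference was 3.11 without double-negative replicate 1 and 1.201 without double-negative replicate 2. GFP-only cells exceeded double-negative cells by 3.93 (SE 0.46, limma adjusted p = 1.71e-05), or by 4.89 and 2.98 without those libraries in turn. Double-positive cells exceeded double-negative cells by 2.85, or by 3.80 and 1.90 likewise. Double-positive against GFP-only cells gave −1.09 (SE 0.46, limma adjusted p = 0.116). This passed in the fit of only the compared populations (adjusted p = 0.00403), with voom (0.00680) and edgeR (0.0327) on the recovered reads, and without either double-negative library (0.00387 and 0.00586), within a range of 0.00387 to 0.402. GFP-only cells exceeded Pdgfrα-only cells by 1.78 (SE 0.46, limma adjusted p = 0.0130), which was lost on leaving out any 1 of the 4 libraries compared (0.0506 to 0.125) and without the mean-variance trend (0.0579), within a range of 9.79e-05 to 0.125.

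**Figure D3:**
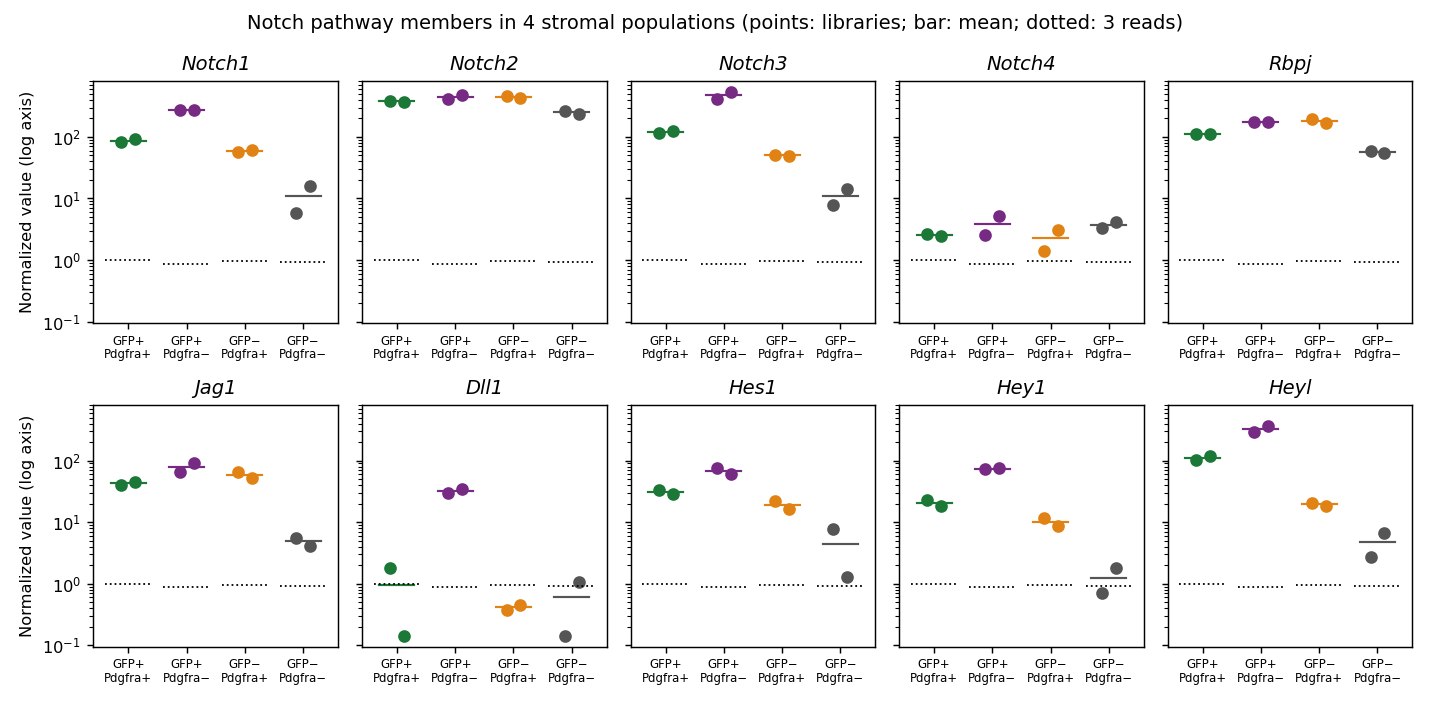
Normalized level on a log axis of the 10 genes in the 4 populations, 1 panel per gene, with points for the libraries, bars for the mean and a dotted line for 3 reads. For *Notch3* and *Heyl* the 4 populations do not overlap, and *Dll1* lies at 30.2 and 34.6 in GFP-only cells and at or below 1.80 elsewhere.

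Per kilobase of exon, the 3 target genes summed to 131 ± 5.56 (SD, n = 2) in GFP-only cells, 46.1 ± 0.72 in double-positive cells, 17.7 ± 3.14 in Pdgfrα-only cells and 3.68 ± 1.30 in double-negative cells. *Heyl* had the highest level per kilobase of the 3 in GFP-only cells (64.4) and double-positive cells (21.4). In Pdgfrα-only cells *Hes1* was highest per kilobase, at 9.33. In double-negative cells the order of the 3 per kilobase differed between the libraries, with *Hes1* at 3.74 and 0.64, *Heyl* at 0.53 and 1.31 and *Hey1* at 0.33 and 0.80. Among the ligands, *Jag1* exceeded *Dll1* per kilobase in each population by the mean, with 13.4 against 7.68 in GFP-only cells and 7.31 against 0.23 in double-positive cells.

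The GFP difference among Pdgfrα+ cells was set against that among Pdgfrα- cells as an interaction in limma. It passed the test for 9 of the 10 genes, each with a smaller or opposite GFP difference among Pdgfrα+ cells, where 44.3% of all genes passed in either direction. The 9 include *Dll1*, for which the filter favoured this direction. The median of the 10 genes was −3.80, against −0.16 over all genes. *Notch4* did not pass (0.17, adjusted p = 0.854). For *Notch3* the GFP difference was 1.26 among Pdgfrα+ cells and 5.36 among Pdgfrα- cells. For *Jag1* and *Rbpj* it was −0.45 and −0.69 among Pdgfrα+ cells, against 3.75 and 1.64 among Pdgfrα- cells. The interaction of *Dll1* was not called by edgeR on the recovered reads (−4.30, adjusted p = 0.118, the highest over the alternatives). Leaving out 1 library moved the interaction most for *Notch1* (−3.47 and −4.76 without double-negative replicate 1 and 2), *Hes1* (−4.19 and −2.29 likewise) and *Dll1* (−4.74 and −3.46 without double-positive replicate 1 and 2). The double-negative population, with its erythroid RNA, enters this comparison.

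The rest of the pathway was read from a list of 58 further genes, of which 53 were in the table. *Dlk2*, *Dner*, *Rbpjl*, *Hes5* and *Hes7* were not. Between the Pdgfrα+ populations 3 of the 53 were called, each higher in double-positive cells, with a median log2 difference of 0.055 (0.0047 over all genes). Between the GFP+ populations 9 were higher and 6 lower in double-positive cells, with a median of −0.025, the same as over all genes to that precision. In GFP-only against double-negative cells 23 were higher and 7 lower, with a median of 0.24 (0.15 over all genes). In Pdgfrα-only against double-negative cells 24 were higher and 13 lower, with a median of 0.55 (0.17 over all genes). The percentages of all genes called in each of these comparisons are those given beside the 10 genes.

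*Hey2* and *Nrarp*, further target genes, were both called lower in double-positive than in GFP-only cells. *Hey2* was 7.16 and 6.30 in GFP-only cells and at most 1.58 in the other libraries (−1.78, limma adjusted p = 0.00655, with a range of 0.00553 to 0.0596 over the alternatives). Like *Dll1*, it exceeded 2 in GFP-only cells alone, so the authors' filter favoured a difference of this direction, and *Mfng*, described below, exceeded 2 in double-negative cells alone. *Nrarp*, a feedback inhibitor of Notch signalling, was 6.68 and 9.39 in GFP-only cells, 4.74 and 5.07 in double-negative cells, 0.97 and 1.01 in double-positive cells, and 0.63 and 0.74 in Pdgfrα-only cells. It was thus high in both Pdgfrα- populations, without overlap with either Pdgfrα+ population, and differed by −2.17 between the GFP+ populations (limma adjusted p = 0.00131) and by −1.81 in Pdgfrα-only against double-negative cells (0.00122). Among other ligands, *Jag2* was 1.82 and 4.24 in GFP-only cells and at most 1.58 elsewhere, and exceeded double-negative cells by 1.47 (limma adjusted p = 0.00772). Without GFP-only replicate 2 this was 1.02 (0.0703, within a range of 0.00481 to 0.110). No other population had a *Jag2* value above 2, so the filter favoured this difference too. *Dll4* was highest in double-negative cells, at 2.15 and 1.53 (−1.06 in GFP-only against double-negative cells, limma adjusted p = 0.0344). That call was lost without either double-negative library or without GFP-only replicate 1 (0.0676 to 0.187), within a range of 0.00191 to 0.187. *Dll4* exceeded 2 in a double-negative library alone, which carries the same limit. The atypical ligand *Dlk1* was 941 and 1014 in double-positive cells, 843 and 933 in GFP-only cells, 1567 and 1619 in Pdgfrα-only cells, and 9.62 and 30.8 in double-negative cells. Its libraries were high in 3 populations and low in double-negative cells, with log2 differences against them of 5.59 in GFP-only cells and 6.44 in Pdgfrα-only cells (limma adjusted p = 6.82e-08 and 1.23e-08). They were 4.80 and 5.65 without double-negative replicate 1, and 6.39 and 7.23 without double-negative replicate 2.

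Of 9 glycosyltransferases that modify the receptors, *Lfng* was highest in GFP-only cells, at 18.6 and 17.9, and lower in double-positive cells, at 7.60 and 3.59 (−1.61, limma adjusted p = 0.00906). That call was lost without either GFP-only library (0.0719 and 0.0601) or without double-positive replicate 2 (0.0713), within a range of 0.00511 to 0.0719. *Gxylt2* was highest in double-positive cells, at 65.3 and 54.2, and exceeded Pdgfrα-only cells by 1.54 and GFP-only cells by 1.19 (limma adjusted p = 0.00686 and 0.00810). The first was lost without Pdgfrα-only replicate 2 (0.0948) or double-positive replicate 1 (0.0768), and the second without GFP-only replicate 1 (0.0753) or double-positive replicate 1 (0.0669). *Mfng* was at the floor in both Pdgfrα+ populations and reached 2.73 and 5.31 in double-negative cells. Among 10 receptor proteases and γ-secretase subunits, 0 differed between the Pdgfrα+ populations and 1 between the GFP+ populations. Of all genes, 3.22% were higher and 2.13% lower in double-positive than in Pdgfrα-only cells, and 13.1% and 11.1% than in GFP-only cells. *Adam10*, which cuts ligand-bound receptors, was 213 and 211 in double-negative cells and 59.3 to 81.9 elsewhere (−1.60 in GFP-only and −1.78 in Pdgfrα-only cells, limma adjusted p = 1.50e-06 and 4.25e-07). *Furin*, *Ncstn* and *Aph1b* were lower in double-negative cells than in GFP-only and Pdgfrα-only cells, *Psen2* was higher there than in Pdgfrα-only cells, and *Aph1c* was lower there than in GFP-only cells (limma adjusted p = 0.0328, within a range of 0.00953 to 0.253, lost in 4 of 8 leave-one-out fits and with median centring, quantile normalization and edgeR). *Aph1b* and *Aph1c* are close copies, and the division of reads between them is uncertain.

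Of 13 ubiquitin ligases and trafficking factors, *Dtx4* followed the order of *Notch3*. It was 95.1 and 94.1 in double-positive cells, 255 and 287 in GFP-only cells, 39.7 and 53.6 in Pdgfrα-only cells, and 3.30 and 6.96 in double-negative cells. Its libraries did not overlap between populations, and it differed by −1.51 between the GFP+ populations (limma adjusted p = 0.00122) and by 1.02 between the Pdgfrα+ populations (0.0424). The latter was lost on leaving out any 1 of the 6 libraries of double-positive, GFP-only and Pdgfrα-only cells (0.101 to 0.302), within a range of 0.00349 to 0.302. *Neurl1b* was 17.8 and 12.2 in double-positive cells and 27.3 and 41.3 in GFP-only cells (−1.13, limma adjusted p = 0.0496, and 0.0565 with the replicate block). Leaving out any 1 of those 6 libraries lost this call too (0.0589 to 0.296), within a range of 0.0157 to 0.296. *Numbl*, an inhibitor of Notch, was 118 and 131 in Pdgfrα-only cells, 87.4 and 106 in double-positive cells, 49.4 and 46.4 in GFP-only cells, and 4.16 and 5.54 in double-negative cells, so that its GFP-only libraries lay below both Pdgfrα+ populations (0.99 in double-positive against GFP-only cells, limma adjusted p = 0.00270). *Dtx1* was higher in double-positive than in GFP-only cells by 1.18 (limma adjusted p = 0.0436), with at most 4.01 in any library. Without any 1 of the double-positive, GFP-only or double-negative libraries that call was lost (0.0633 to 0.2003), within a range of 0.0285 to 0.2003. *Dtx2*, *Dtx3*, *Mib2* and *Neurl1a* were higher in Pdgfrα-only than in double-negative cells. Of 15 nuclear cofactors in the table, 0 differed between the Pdgfrα+ populations. Few genes were called there at all (3.22% of all genes higher and 2.13% lower in double-positive cells). *Maml2*, *Maml3*, *Tle1*, *Tle2* and *Tle3* were higher in Pdgfrα-only than in double-negative cells, and *Spen*, *Cir1* and *Tle4* lower. *Maml2*, a coactivator of the Notch complex, was also higher in double-positive than in GFP-only cells (0.71, limma adjusted p = 0.0371), which was lost without Pdgfrα-only replicate 1 (0.0511) or any double-positive or GFP-only library (0.0992 to 0.174), within a range of 0.0216 to 0.174.

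Markers of other cell types moved with the same comparisons. Of all genes, 3.22% were higher and 2.13% lower in double-positive than in Pdgfrα-only cells. In double-positive against GFP-only cells 13.1% were higher and 11.1% lower, and in GFP-only against double-negative cells 30.1% and 23.6%. These shares apply to the marker counts here and in the next paragraph. Of 9 pericyte and smooth muscle genes, 7 were lower in double-positive than in GFP-only cells, 9 were higher in GFP-only than in double-negative cells and 3 were higher in double-positive than in Pdgfrα-only cells. Their summed level was 650 and 555 in double-positive cells, 2139 and 2786 in GFP-only cells, 495 and 506 in Pdgfrα-only cells, and 90.6 and 146 in double-negative cells. The most abundant, *Rgs5*, was 731 and 1035 in GFP-only cells and at most 70.6 elsewhere. Thus the highest sums lay in the libraries with the highest *Notch3* and *Heyl* levels. The Schwann lineage and skeletal muscle sums, given next, were also highest in those libraries. Of 9 Schwann lineage genes, led by *Ngfr*, 7 were lower and 1 higher in double-positive than in GFP-only cells, and 6 were higher and 0 lower in double-positive than in Pdgfrα-only cells. In GFP-only against double-negative cells, 8 of these genes were higher and 0 lower, with a median log2 difference of 3.02. Their sum was 206 and 182 in double-positive cells, 482 and 436 in GFP-only cells, 79.3 and 88.7 in Pdgfrα-only cells, and 29.2 and 43.3 in double-negative cells. *Sox10* was 83.2 and 85.8 in GFP-only cells, and in Pdgfrα-only cells *Sox10*, *Foxd3*, *Cdh19* and *Fabp7* were at the floor, as *Foxd3* and *Cdh19* were in double-negative cells. Of 8 skeletal muscle genes, 7 were lower in double-positive than in GFP-only cells, and 3 were higher and 0 lower in double-positive than in Pdgfrα-only cells. In GFP-only against double-negative cells, 8 of these genes were higher and 0 lower, with a median log2 difference of 5.49. Their sum was 53.6 and 60.7 in double-positive cells, 813 and 829 in GFP-only cells, 21.4 in both Pdgfrα-only libraries, and 21.8 and 10.1 in double-negative cells. The muscle stem cell gene *Pax7* led this list, at 296 and 336 in GFP-only cells. It was at the floor in Pdgfrα-only cells with *Myf5*, *Myod1*, *Myog* and *Cdh15*, and *Myf5*, *Myod1* and *Cdh15* were at the floor in double-negative cells. The GFP-only libraries thus held RNA of markers of 3 cell types, and their part in the Notch results was not tested.

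Osteoblast genes, led by *Col1a1*, were called higher in double-positive cells for 7 of 7 against both Pdgfrα-only and GFP-only cells. Their sum was 54929 and 40879 in double-positive cells, 17033 and 15505 in Pdgfrα-only cells, 3378 and 2809 in GFP-only cells, and 466 and 596 in double-negative cells, where *Bglap* was at the floor. Endothelial genes, led by *Tek*, summed to between 36.3 and 143 in the 8 libraries, with both extremes in double-negative cells. *Esam* was at the floor in double-positive cells, and *Tie1*, *Emcn* and *Esam* in Pdgfrα-only cells. *Cldn5* was not in the table. Of these 9 genes, 1 was lower in double-positive than in GFP-only cells, where 11.1% of all genes were. Between the Pdgfrα+ populations 0 differed, where 3.22% of all genes were higher and 2.13% lower in double-positive cells. Against double-negative cells, 2 were higher and 0 lower in GFP-only cells (30.1% and 23.6% of all genes). In Pdgfrα-only cells 2 were higher and 3 lower (32.9% and 26.8% of all genes). Haematopoietic genes, led by *Lyz2*, summed to 87.3 and 90.1 in double-negative cells and to between 4.42 and 20.9 elsewhere. *Coro1a*, *Tyrobp* and *Mpo* were at the floor in double-positive cells, *Elane* in GFP-only cells, and *Ptprc*, *Tyrobp*, *Elane* and *Cd79a* in Pdgfrα-only cells. Of 8 such genes, 4 were lower in GFP-only than in double-negative cells, where 23.6% of all genes were. In Pdgfrα-only against double-negative cells 6 were lower, where 26.8% of all genes were. Of the 6 erythroid genes, 6 were lower in each of those comparisons. Chondrocyte genes, led by *Col2a1*, summed to 292 and 370 in double-positive cells, 66.8 and 96.2 in GFP-only cells, 603 and 1958 in Pdgfrα-only cells, and 501 and 914 in double-negative cells, with *Matn1* at the floor outside double-negative cells. Tendon and fibroblast genes, led by *Dcn*, summed to 2011 and 2036 in double-positive cells, 73.1 and 50.9 in GFP-only cells, 2373 and 2025 in Pdgfrα-only cells, and 45.7 and 51.9 in double-negative cells, with *Scx* at the floor in double-positive and double-negative cells. The part of these lists in the results was not tested.

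The genes with patterns most like each called gene were taken from 9017 genes with a mean of at least 10, by Pearson correlation of log2 levels over the 8 libraries. These points share 4 populations of 2 libraries each, so a high correlation mostly reflects population means, and it says nothing of shared function or control. *Notch3* was nearest to *Hey1* (r = 0.9948), *Abcc9* (0.9942) and *Sh2d3c* (0.9941). *Abcc9*, a potassium channel subunit of pericytes, was 67.0 and 70.6 in double-positive cells, 202 and 253 in GFP-only cells, 36.7 and 34.0 in Pdgfrα-only cells, and 7.90 and 18.3 in double-negative cells. *Hey1* was nearest to *Adcyap1r1* (0.9978), *Notch3* and *Fos* (0.9937). *Heyl* was nearest to *Zeb2* (0.9916), *Mmp15* (0.9883) and *Notch3* (0.9872). *Notch1* was nearest to *Ccng2* (0.9956), *Nes* (0.9918) and *Dtx4* (0.9918). *Dll1* was nearest to *Casz1* (0.9853), *Tsga14* (0.9844) and *Btg1* (0.9844). *Casz1* was 41.4 and 33.3 in GFP-only cells and at most 2.71 elsewhere. *Jag1* was nearest to *Galnt4* (0.9956), *Rgs4* (0.9953) and *Spin1* (0.9949). *Hes1* was nearest to *Akap9* (0.9864), *Irgq* (0.9809) and *Tet2* (0.9794). *Notch2* was nearest to *Vipar* (0.9885), *Fam120c* (0.9867) and *Ccnl2* (0.9862), and *Rbpj* to *1110012J17Rik* (0.9896), *2010111I01Rik* (0.9892) and *1700021K19Rik* (0.9869).

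Promoter sequences from RefSeq (GRCm38.p6) were matched by symbol for 7 of the 10 genes, with 9 windows, and *Hes1*, *Hey1* and *Heyl* had no entry. In the 250 bases upstream of the start, 4 motifs were searched on both strands. GGGCGG, a core of Sp-family sites, was present in 32.74% of 32851 mouse windows and in *Notch1* (5 matches), *Notch2* (5) and *Notch3* (4). TGGGAA, the core bound by Rbpj, was present in 21.59% of windows and among the 7 genes only in *Rbpj*. GTGGGAA, which contains TGGGAA, was present in 5.42% and TATAAA in 12.37% of all windows, and neither in any of the 7 genes. A match is a description of these letters and not a binding site. The 150 bases before the start of the 3 receptors that differed between populations are shown to compare their layout, with GGGCGG or its reverse complement CCGCCC in capitals. They lie at chr2:26503823-26503972 (minus strand, *Notch1*), chr3:98013388-98013537 (plus strand, *Notch2*) and chr17:32166891-32167040 (minus strand, *Notch3*) of GRCm38.p6. The stretch of *Rbpj*, at chr5:53590196-53590345 on the plus strand, is shown because it holds the motif of its own protein (TGGGAA or TTCCCA, in capitals).
Notch1: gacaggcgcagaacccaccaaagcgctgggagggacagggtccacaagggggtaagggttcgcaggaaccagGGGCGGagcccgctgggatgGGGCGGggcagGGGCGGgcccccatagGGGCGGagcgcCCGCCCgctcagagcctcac
Notch2: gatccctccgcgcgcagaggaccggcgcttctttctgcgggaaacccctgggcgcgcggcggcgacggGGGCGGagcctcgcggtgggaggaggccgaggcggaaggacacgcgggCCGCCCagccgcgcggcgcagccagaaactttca
Notch3: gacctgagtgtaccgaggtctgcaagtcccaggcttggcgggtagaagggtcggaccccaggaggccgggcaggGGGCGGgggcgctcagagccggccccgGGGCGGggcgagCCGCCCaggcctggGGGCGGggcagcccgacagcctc
Rbpj: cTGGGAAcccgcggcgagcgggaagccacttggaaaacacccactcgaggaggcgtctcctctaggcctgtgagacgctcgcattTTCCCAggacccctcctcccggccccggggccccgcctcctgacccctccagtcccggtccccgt
The printed stretches hold 5 marked matches in *Notch1*, 4 in *Notch3*, and 2 each in *Notch2* and *Rbpj*.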

How the data were processed

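RNA-seq of 4 sorted populations with 2 libraries each was analysed. Per the labels and methods, the authors amplified cDNA (Ovation RNA-Seq System V2), trimmed adaptors with cutadapt, quantified reads with RSEM 1.17 on the NCBIM37 transcriptome, removed weakly detected genes and used limma's voom to normalize. Each value deposited is a normalized signal of 1 gene in 1 library, and from these values whole reads were recovered for 100% of values (tolerance 0.05 reads). Of 15880 identifiers, 15849 matched the GENCODE M1 annotation of NCBIM37, which gave symbols, exons and lengths.

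The model, on log2 of signal plus 1, had a coefficient for each population, which left 4 residual degrees of freedom, and used limma 3.58.1 under R 4.3.3 with a moderated variance that follows a trend in mean level (lmFit, then eBayes). P-values were adjusted over all 15880 genes. Python 3.11.15 with pandas 2.3.3, numpy 2.4.6 and matplotlib 3.10.9 made tables and figures. The fits were tested on simulated data. No further filter was applied, so all 10 genes were tested. Reads per library had a median of 3604130.5, and the floor of 3 reads covers counting error only.

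The genes and lists were chosen with earlier results of these data known. Named were the 10 genes; of the other pathway genes, those called in at least 1 of the 4 comparisons that differ in a single sorted marker, with an absolute log2 difference of at least 1 there, and those not in the table; the 3 genes most correlated with each called member; and of each marker list the most abundant gene and those at the floor. *Sox10* was named after its values were seen.

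The design text ties each set of samples to pooled littermates, so replicate numbers were read as shared pools. Libraries of the same number deviated from the means of their populations with correlations of 0.004 to 0.081. The alternatives were fits limited to the compared populations, a replicate block, no mean-variance trend, a pseudocount of 0.1, a filter on low values, median centring, quantile normalization, voom and edgeR 4.0.16 on the recovered reads, and leaving out each replicate or library. With edgeR, 893 genes were called on those reads in GFP+ Pdgfrα+ against GFP- Pdgfrα+ cells and 3586 against GFP+ Pdgfrα- cells.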

Additional observations from a re-analysis of the deposited data

Results flagged for a closer look

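For 9 of the 10 genes the GFP difference among Pdgfrα+ cells differed from that among Pdgfrα- cells, by limma's test of the interaction. The log2 difference of the GFP differences was −4.11 for *Notch1* and −4.10 for *Notch3*, and for both genes GFP+ cells had the higher means on either side of the Pdgfrα gate, although for *Notch1* the difference among Pdgfrα+ cells did not pass the test (adjusted p = 0.382). It was −1.06 for *Notch2* and −4.19 for *Jag1*. For *Dll1*, which was above the floor mainly in GFP-only cells, it was −4.10, a direction that the authors' filter favoured. *Rbpj* had −2.33, and its level was lower with GFP among Pdgfrα+ cells and higher with GFP among Pdgfrα- cells. The target genes had −3.24 (*Hes1*), −4.13 (*Hey1*) and −3.50 (*Heyl*). Limma adjusted p-values of the 9 genes lay between 1.03e-06 and 0.00171.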

How the results depend on the processing

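Of 1320 recomputed log2 differences of the 10 genes, 1230 kept their direction and their side of the threshold or, where no test was possible, moved by less than the spread between libraries. Of the others, 22 lost a call, 11 gained one, 36 without a test moved by more than that spread, and 21 with a test changed sign, each for a difference that was not called. Leaving out a replicate number leaves 1 library per population and no test. The number of called genes in double-positive against Pdgfrα-only cells was 3, and 1 without the mean-variance trend, and lay between 1 (without any 1 of the double-positive or Pdgfrα-only libraries) and 5 (without either double-negative library) over the leave-one-out fits. The cause was not tested. With the replicate block the counts were 3, 7, 9, 8, 6 and 8 in the order of the comparisons given above, 9 for the interaction and 9 over the 4 populations, as without it. Among the genes named, the block changed the calls of *Neurl1b* between the GFP+ populations and *Dtx2* in GFP-only against double-negative cells (adjusted p = 0.0522).

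Sign changes with a test concerned *Notch2*, *Notch4*, *Dll1* and *Rbpj*. Without a test, *Jag1* in GFP-only against Pdgfrα-only cells became −0.011 without replicate 2. *Notch4* in GFP-only against double-negative cells (0.0067) became −0.007 with a pseudocount of 0.1, −0.447 with median centring, −0.68 with quantile normalization, −0.095 with voom and −0.002 with edgeR, and lay between −0.404 and 0.418 over the leave-one-out fits. *Notch4* lay between −0.221 and 0.566 in double-positive against Pdgfrα-only cells and between −0.246 and 0.576 for the interaction in those fits, and was −0.258 and −0.55 without replicate 1 and 0.602 and 0.88 without replicate 2. *Dll1* in double-positive against double-negative cells became −0.261 with median centring and −0.196 with quantile normalization, and lay between −0.425 and 0.864, with −0.85 and 1.289 without replicate 1 and 2. It lay between −0.303 and 0.986 in double-positive against Pdgfrα-only cells (−0.338 and 1.02 without replicate 1 and 2) and between −0.546 and 0.304 in Pdgfrα-only against double-negative cells. In GFP-only against Pdgfrα-only cells, quantile normalization gave 0.109 for *Notch2* (0.113 without replicate 1) and 0.081 for *Rbpj*, and the leave-one-out fits −0.101 to 0.08 and −0.138 to 0.053. In fits that leave a population with 1 library, that library is assumed to vary like the others.

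The median of all genes against double-negative cells was 0.15 (GFP-only), 0.17 (Pdgfrα-only) and 0.20 (double-positive) and became −0.30, −0.28 and −0.28 with median centring and −0.14, −0.15 and −0.16 with quantile normalization. Genes called higher and lower in GFP-only against double-negative cells numbered 4787 and 3740, but 3550 and 5569 with median centring and 3871 and 4419 with quantile normalization. In Pdgfrα-only against double-negative cells 5226 and 4250 became 3913 and 5720 or 4249 and 5086, and in double-positive against double-negative cells 5221 and 4189 became 3834 and 5846 or 4059 and 5132. For the interaction 3032 and 3999 became 4427 and 2989 or 3307 and 3306. Between the Pdgfrα+ populations 511 and 338 became 521 and 536 with voom. With 2 libraries per population, and 0 to 20 reads of *Notch4* and of *Dll1* outside GFP-only cells, counting error limits the precision of those genes. RNA levels do not show receptor cleavage or ligand binding, and the sorted populations held RNA of several cell types.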
